A study of Mus musculus with 48 samples.

Results

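The comparison is between mouse lung epithelium after bleomycin with KIRA8 and after bleomycin with vehicle. Its members are the 10 epithelial libraries of batches S061 and S135 from bleomycin-exposed mice labelled KIRA8 or Control, out of 48 libraries in the series. S061 held 3 control mice (17 and 31, female, and 45, male) and 3 KIRA8 mice (20 and 32, female, and 41, male). S135 held 2 control mice (148 and 149) and 2 KIRA8 mice (154 and 155), all male. The treatment of these controls is given as Vehicle. All mice carried an HA-tagged ribosome, and epithelial RNA was recovered with an anti-HA antibody and sequenced from its 3' end. The promoter that drives the tag, the strain, the ages, and the doses and times of bleomycin and KIRA8 were not among the labels used. Each mouse also gave a whole lung library. In S135, 3 saline mice (146, 152 and 153) had neither bleomycin nor KIRA8. In S151, 3 saline mice and 4 bleomycin control mice, whose treatment is labelled Axum8, entered no KIRA8 comparison and are used as an independent reference.

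Bleomycin is a DNA-damaging agent that injures the alveolar epithelium and is followed in mice by lung fibrosis. IRE1α is a sensor of unfolded protein in the endoplasmic reticulum, and its kinase controls an RNase that splices the mRNA of the transcription factor XBP1 and cuts other RNAs. KIRA8 is a small molecule that binds the IRE1α kinase and through it attenuates the RNase. The title of the series names inhibition of IRE1α or TGFβ. The comparison addresses the effect of the IRE1α inhibitor during bleomycin injury on epithelial RNA recovered through the tagged ribosome.

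The deposited table names genes by Ensembl ID only, and the gene table used here (49997 genes) matched 0 of its 42548 IDs. Single genes therefore carry their ID (no more than 2 in each direction), and neither symbols nor the marker and pathway lists written as symbols could be applied. The epithelial label could accordingly not be checked against named markers. In place of them, genes were grouped by their enrichment in epithelial over whole lung libraries of the 3 saline mice of S151, and by their response to bleomycin in S151.

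The 10 libraries held between 7163613 and 31359928 counts. In S061 the KIRA8 libraries were the deeper ones, with 26788479 to 31359928 counts against 21790283 to 22160802 in the controls. A set of 501 genes was abundant in all of S061 and nearly absent from the other batches. It held 14.9%, 20.6% and 20.9% of the counts of the S061 control libraries and 22.3%, 25.1% and 29.8% of those of the S061 KIRA8 libraries, against 0.0878% to 0.196% in the 4 libraries of S135. Within S061 the arms did not overlap. Whether these genes are liver transcripts could not be checked without symbols, and they were set aside from library sizes and tests. Genes at least 8-fold depleted from saline epithelium (1614 genes, a measure of RNA from other cells) held 5.51% to 8.66% of the remaining counts in S061 controls and 8.82% to 13.6% in S061 KIRA8 libraries. The same genes held 0.777% to 0.956% in S135 controls and 0.586% to 0.783% in S135 KIRA8 libraries, so the arms were ordered the opposite way in the 2 batches. The part of this RNA in the results below was not tested, and in these bulk libraries fewer cells of a type cannot be told apart from less RNA per cell. In the epithelial libraries, neither can be told apart from less of an RNA on the tagged ribosomes.

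**Figure D1:**
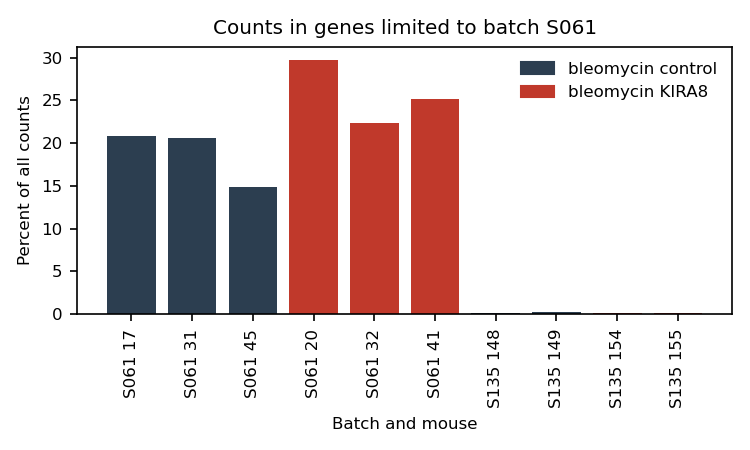
Share of all counts (percent, bars) that fell in the 501 genes limited to batch S061, for each of the 10 epithelial libraries by batch and mouse, with controls dark and KIRA8 red. The 6 libraries of S061 reach 14.9% to 29.8%, with the 3 KIRA8 libraries above the 3 controls, and the 4 libraries of S135 stay under 0.196%.

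KIRA8 was accompanied by a decrease of a small number of genes in epithelium, 2 of them by about 4- to 5-fold, and by a small increase of fewer genes. Of 14267 genes tested with edgeR's quasi-likelihood test and batch as a term, 16 passed an adjusted p of 0.05, which is 0.112% of those tested. Of these, 12 were lower with KIRA8 (0.0841%) and 4 were higher (0.028%). The excess of lower genes was not kept under 3 other settings: 311 were higher and 222 lower with DESeq2, 14 and 13 with RLE size factors, and 109 and 101 without a filter on low counts. The lower genes changed by -0.78 to -2.34 on the log2 scale and the higher genes by 0.64 to 0.93. The median over all genes tested was -0.01. At an unadjusted p under 0.05, 1026 genes were lower (7.19%) and 967 higher (6.78%). The 16 calls were of unequal strength: 3 lower genes had adjusted p-values of 0.000278 to 0.00342, and the other 13, ENSMUSG00000064294 and ENSMUSG00000045257 among them, lay between 0.0436 and 0.0492. Those 3 genes passed in each of the 10 fits that left out 1 mouse, while each of the other 13 passed in 1 to 3 of them. The count itself moved between 3 and 177 when 1 mouse was left out, and it rose to 177 without control mouse 149.

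The gene with the largest change was ENSMUSG00000024529. In S061 its level was 64.7, 75.3 and 52.5 CPM (a gene's counts scaled to a common library total, without the genes set aside) in control mice 17, 31 and 45, and 13.2, 9.67 and 11.7 CPM in KIRA8 mice 20, 32 and 41. In S135 it was 10.6 and 5.88 CPM in control mice 148 and 149, and 1.15 and 2.38 CPM in KIRA8 mice 154 and 155. These 2 KIRA8 values rest on 17 counts each, and mouse 155 had the smallest library of the comparison (7163613 counts). All KIRA8 mice lay below all control mice of their own batch. S061 control and KIRA8 mice both lay above their S135 counterparts, and the KIRA8 mice of S061 overlapped the control mice of S135. The fitted difference was -2.34 ± 0.20 (log2, SE, n = 5 and 5; edgeR adjusted p = 0.000278), or 5.05-fold lower with KIRA8. Leaving out each mouse in turn gave -2.45 to -2.25, with a largest adjusted p of 0.00401. The 3 saline mice of S135 had 2.57, 2.15 and 2.89 CPM, on 37, 39 and 46 counts. The KIRA8 mice of that batch lay within and below that range, at counts too low to rank the 2 groups closely. This gene was depleted from epithelial libraries of saline S151 mice, at -2.52 ± 0.27 against whole lung (log2, SE).

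ENSMUSG00000023905 showed the next largest decrease. Its level in S061 was 60.0, 63.6 and 76.8 CPM in the control mice and 11.0, 15.2 and 16.1 CPM in the KIRA8 mice. In S135 it was 10.4 and 5.39 CPM in the controls and 1.69 and 3.49 CPM in the KIRA8 mice, the latter on 25 counts each. The arms were separate within each batch. The fitted difference was -1.98 ± 0.23 (log2, SE, n = 5 and 5; edgeR adjusted p = 0.00342), or 3.94-fold lower, and -2.15 to -1.86 when each mouse was left out. The S135 saline mice had 3.61, 2.21 and 1.95 CPM and overlapped the KIRA8 mice of S135. Unlike the first gene it was somewhat enriched in epithelial libraries of saline S151 mice, at 0.86 ± 0.17 over whole lung (log2, SE). This did not hold for the saline mice of S135, whose mean was 2.59 CPM in epithelium against 4.37 CPM in whole lung. Of these mice only 146 was higher in epithelium, with 3.61 CPM against 1.40 CPM. The difference between compartments in saline mice of S135 was not tested.

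The third gene that passed in every leave-one-out fit, not given by ID and described because of its values, was the most abundant of the 3. Its level in S061 was 186, 218 and 211 CPM in the control mice against 60.7, 88.2 and 64.5 CPM in the KIRA8 mice. In S135 it was 144 and 131 CPM in the controls against 69.2 and 74.1 CPM with KIRA8. All 5 KIRA8 mice lay below all 5 controls across batches. The difference was -1.21 ± 0.14 (log2, SE, n = 5 and 5; edgeR adjusted p = 0.00342), or 2.31-fold lower. Saline mice of S135 had 90.6, 76.9 and 75.0 CPM, above both KIRA8 mice of that batch. The gene was enriched in saline epithelium by 1.42 ± 0.12 (log2, SE), which is more than 2-fold over whole lung.

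Among the 4 higher genes the largest change was that of ENSMUSG00000064294. Its level in S061 was 48.1, 48.8 and 42.7 CPM in the controls and 88.3, 92.4 and 82.7 CPM with KIRA8. In S135 it was 113 and 214 CPM in the controls and 268 and 279 CPM with KIRA8, below the saline mice at 368, 346 and 406 CPM. The arms were separate within each batch, and the 2 controls of S135 stood far apart. The difference was 0.93 ± 0.16 (log2, SE, n = 5 and 5; edgeR adjusted p = 0.0492), and the call was kept in 1 of 10 leave-one-out fits.

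ENSMUSG00000045257 was the other higher gene given by ID. It had 32.0, 33.3 and 29.7 CPM in the S061 controls and 44.8, 51.1 and 54.3 CPM in the S061 KIRA8 mice. In S135 it had 28.3 and 19.7 CPM in the controls and 38.2 and 48.5 CPM with KIRA8, while saline mice had 31.8, 29.4 and 20.1 CPM. All 5 KIRA8 mice lay above all 5 controls, and both KIRA8 mice of S135 lay above the saline mice. The difference was 0.83 ± 0.13 (log2, SE, n = 5 and 5; edgeR adjusted p = 0.0436), kept in 3 of 10 leave-one-out fits. This gene was enriched in saline epithelium by 1.98 ± 0.15 over whole lung (log2, SE).

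**Figure D2:**
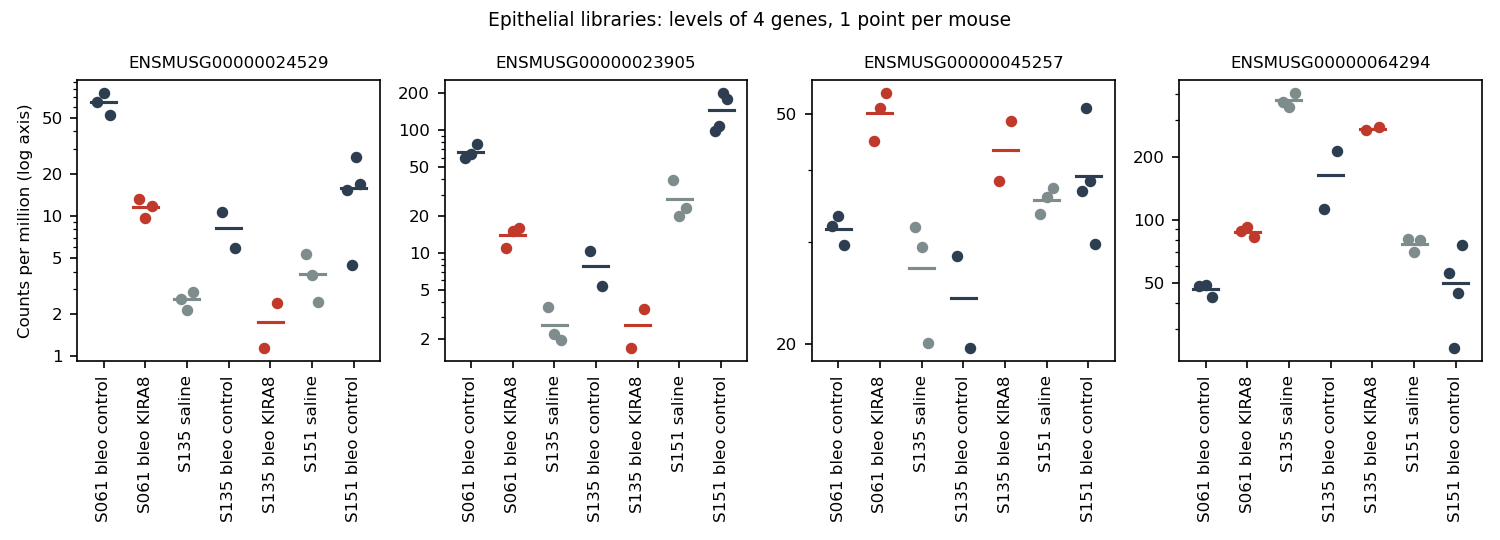
Level in epithelial libraries (CPM, log axis) of the 2 genes with the largest decrease and the 2 with the largest increase, 1 point per mouse and a bar at the group mean, by batch and arm. Within S061 and within S135 the KIRA8 mice (red) and bleomycin control mice (dark) do not overlap in any of the 4 genes. ENSMUSG00000024529 lies at 1.15 and 2.38 CPM in the KIRA8 mice of S135 and at 2.15 to 2.89 CPM in the saline mice of that batch (grey). The 2 KIRA8 values rest on 17 counts each.

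All 16 called genes had the same direction in both batches, and for all 16 the arms did not overlap in either batch. Of all genes tested, 7.05% had arms that did not overlap in both batches in the same direction, and the separation of the called genes is part of what the test selects. Of the 12 lower genes, 11 had the larger decrease in S061, with a median of -1.49 there against -0.86 in S135 (log2). Of the 4 higher genes, 1 had the larger increase in S061, with medians of 0.71 in S061 and 0.82 in S135. ENSMUSG00000024529 changed by -2.39 ± 0.25 in S061 and -2.20 ± 0.37 in S135, and ENSMUSG00000023905 by -2.17 ± 0.26 and -1.57 ± 0.38 (log2, SE, per-batch terms of the 10-library fit). The third gene changed by -1.45 ± 0.15 in S061 and -0.84 ± 0.18 in S135. None of the 16 passed the test of the difference between batches, by edgeR (0.112% of all genes) or by DESeq2 (2.1% of all genes). At such shares, 0 of 16 does not tell whether their effects agree between batches. In the edgeR test 4 of them had an unadjusted p under 0.05, against 13.6% of all genes tested. Fitted alone, the 6 libraries of S061 gave 156 calls (1.06%) and the 4 libraries of S135 gave 15 (0.11%). Of the 16 genes, 15 were called in S061 alone and 0 in S135 alone.

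A separate set of 16 genes differed in KIRA8 effect between S061 and S135 (0.112% of 14267 tested). All 16 had opposite directions in the 2 batches, 11 of them higher with KIRA8 in S061 and lower in S135, and 5 the reverse. None of these was among the genes called over both batches (0.112% of all genes), and opposite directions work against such a call. The count was 0 in 6 of the 10 fits that left out 1 mouse and reached 41 without KIRA8 mouse 155.

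**Figure D3:**
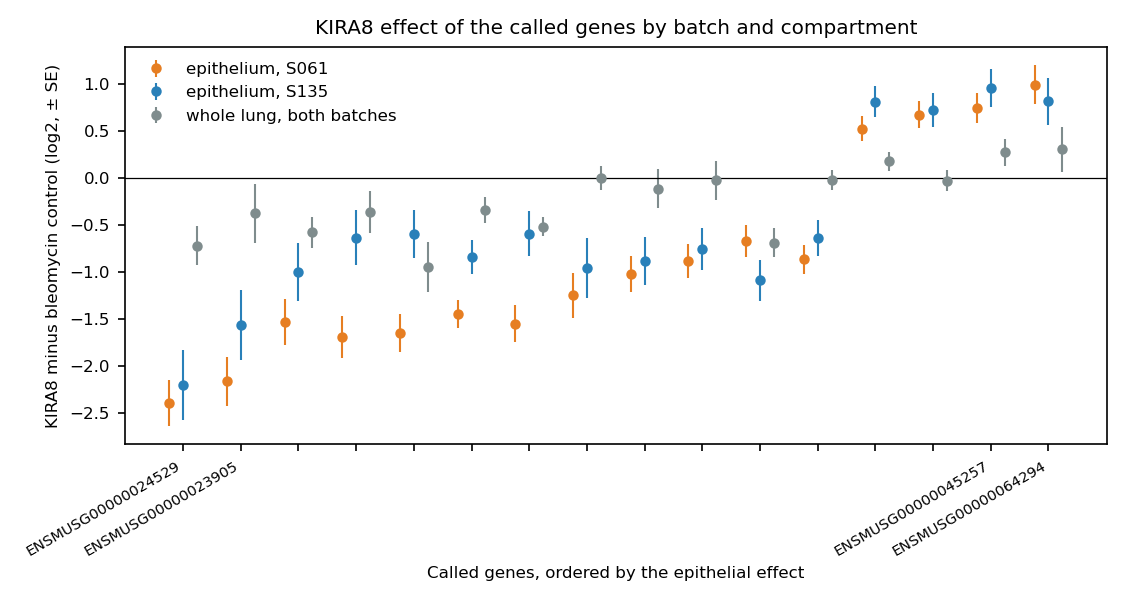
KIRA8 minus bleomycin control (log2, points with SE bars) for the 16 called genes, in epithelium of S061 (orange), epithelium of S135 (blue) and whole lung of the same mice (grey), with the 4 genes given by ID marked on the axis. Both epithelial estimates lie on the same side of 0 for every gene, and 11 of the 12 decreases are larger in S061. All 16 whole lung estimates are smaller in size than the epithelial estimate over both batches, which is not drawn. Whole lung exceeds the estimate of a single batch in a lower gene with -0.95 against -0.59 in S135. It does so in another with -0.69 against -0.67 in S061.

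In the whole lung library of each of the 10 mice the called genes moved less. The whole lung effect was smaller in size than the epithelial effect over both batches for all 16. Its median was -0.37 for the 12 lower genes and 0.23 for the 4 higher ones (log2). It had the epithelial direction for 11 of 12 lower and 3 of 4 higher genes. Over the 14032 genes tested in both compartments the median whole lung effect was -0.02. None of the 16 passed in whole lung by edgeR, where 17 of 15742 genes did (0.108%). By DESeq2 5 of the 16 passed, against 5.71% of all genes. The whole lung count of 17 was 0 in 7 of 10 fits that left out 1 mouse and 501 without control mouse 149. The whole lung library of mouse 149 held 1.98% of its counts in the genes limited to S061. The other whole lung libraries of S135 held 0.138% to 0.208%, and the part of this difference in the count was not tested. Of the 16 genes, 6 had an unadjusted p under 0.05 against 17.7% of all genes. Since the genes were called in epithelium, some shrinkage of their effect in a second set of libraries is part of that choice.

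ENSMUSG00000024529 had a higher level in whole lung than in epithelium in every mouse. In S061 whole lung it had 207, 237 and 179 CPM in the controls and 182, 85.8 and 144 CPM with KIRA8, and in S135 it had 63.9 and 29.4 CPM in the controls and 21.9 and 28.5 CPM with KIRA8. In S061 the KIRA8 value of mouse 20 lay within the control range, and in S135 the arms were separated by less than 1 CPM. The whole lung difference was -0.72 ± 0.21 (log2, SE, n = 5 and 5; edgeR adjusted p = 0.117). Its effect in epithelium exceeded that in whole lung by -1.57 ± 0.16 (log2, SE, mouse as a block; edgeR adjusted p = 0.000298). It was the only gene of 16482 tested that passed that test of the difference between compartments (0.00607%). Without the block the same difference was -1.57 with an adjusted p of 0.113, and no gene passed. In S061 alone it was -1.75 (adjusted p = 0.00219) and in S135 alone -1.39 (adjusted p = 0.374), both alternatives chosen after the data were seen. It passed in all 10 fits that left out a mouse, with values of -1.75 to -1.51.

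The other genes with values in whole lung did not pass the test of the difference between compartments. ENSMUSG00000023905 changed by -0.38 ± 0.31 in whole lung and differed between compartments by -1.45 ± 0.33 (log2, SE; edgeR adjusted p = 0.1). The third gene changed by -0.34 ± 0.14 in whole lung. ENSMUSG00000064294 changed by 0.31 ± 0.24 and ENSMUSG00000045257 by 0.28 ± 0.14. Of the 16 called genes, 14 had an unadjusted p under 0.05 for the compartment difference, against 13.8% of genes tested, with the caution that they were chosen for their epithelial effect.

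The response to bleomycin of the same genes was read in S151, whose mice are not among the 10 of the KIRA8 comparison. The bleomycin mice of S151 carry the treatment label Axum8, and those of S061 and S135 Vehicle. The part of that treatment in what is called the bleomycin change of S151, here and below, was not tested. Of the 12 genes lower with KIRA8, 11 had a positive bleomycin change in S151, with a median of 0.94 and a range of -0.27 to 1.98 (log2). Over the 13346 genes tested in both comparisons, 50.2% had a positive change and the median was 0.002. Of the 12 genes, 3 passed the test for an increase, against 1.74% of the 14878 genes tested in S151. An unadjusted p under 0.05 with an increase was seen for 8 of them, against 7.72%. ENSMUSG00000023905 rose with bleomycin in S151 by 1.98 ± 0.27 (log2, SE; n = 4 and 3; edgeR adjusted p = 0.00457), from 39.3, 20.1 and 23.3 CPM in the saline mice to 99.1, 108, 203 and 180 CPM. ENSMUSG00000024529 had 5.34, 3.76 and 2.43 CPM in the saline mice and 15.3, 4.49, 26.2 and 17.0 CPM in the bleomycin mice, with 1 bleomycin mouse inside the saline range. Its difference of 1.57 ± 0.47 did not pass (edgeR adjusted p = 0.14). The third gene differed by 0.90 ± 0.28 and did not pass either (edgeR adjusted p = 0.158).

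Of the 4 genes higher with KIRA8, 3 had a negative bleomycin change in S151, over a range of -1.09 to 0.04, where 50.2% of all genes had a positive one. None of the 4 passed the test there by edgeR, against 0.376% of all genes called lower and 1.74% called higher. By DESeq2 1 fell, against 1.86% of all genes. By edgeR 1 was lower at an unadjusted p under 0.05, against 6% of all genes. ENSMUSG00000064294 had a bleomycin change of -1.09 ± 0.28 (log2, SE; edgeR adjusted p = 0.0843) and ENSMUSG00000045257 one of -0.29 ± 0.25 (adjusted p = 0.691). CPM lack the TMM scaling that the fit applies between libraries. In CPM, ENSMUSG00000045257 had a mean of 39.0 in the bleomycin mice and 35.5 in the saline mice of S151. The direction of its bleomycin change therefore depended on the scaling.

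The wider groups that bleomycin defined in S151 were then read for KIRA8. Bleomycin changed 315 of 14878 genes there (2.12%), a count that moved between 91 (without saline mouse 207) and 862 (without control mouse 206) when 1 of the 7 mice was left out. The raised genes numbered 88 to 517 and the lowered genes 3 to 345 in those fits. With all 7 mice, bleomycin raised 259 genes, of which 247 were tested for KIRA8 and 12 did not pass the filter on low counts. The 247 genes had a median KIRA8 effect of -0.47 (log2), against -0.01 over all genes tested, and 90.3% of them had a negative effect against 51.1% of all genes. Of them 3 were called lower and 0 higher by edgeR, against 0.0841% and 0.028% of all genes. DESeq2 called 32 of them lower and 0 higher, against 1.56% and 2.18% of all genes. At an unadjusted p under 0.05, 85 were lower (34.4%, against 7.19% of all genes) and 1 was higher (0.405%, against 6.78%). Their median was -0.46 in S061 and -0.68 in S135. In whole lung of the same mice, 246 of the genes were tested and had a median of -0.49, with 101 lower (41.1%, against 8.84% of all genes) and 2 higher (0.813%, against 8.88%) at an unadjusted p under 0.05. The median of their differences between compartments was 0.02.

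The 56 genes lowered by bleomycin in S151 were all tested for KIRA8, and this list held 3 genes without saline mouse 207 and 345 without control mouse 206. Their median KIRA8 effect was 0.36 (log2), and 78.6% had a positive effect against 48.9% of all genes. None was called at an adjusted p of 0.05 by edgeR, against 0.028% of all genes called higher and 0.0841% called lower. By DESeq2 12 were called higher, against 2.18% of all genes. At an unadjusted p under 0.05, 26 were higher (46.4%, against 6.78% of all genes) and 1 was lower. The median was 0.39 in S061 and 0.33 in S135, and 0.14 in whole lung.

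The KIRA8 effect moved in steps with the size of the bleomycin effect in S151 over the 13346 genes tested in both. Its median was 0.35 for the 228 genes with a bleomycin change at or under -1 (log2), and 0.17 for the 1105 genes from -1 to -0.5. It was -0.00 for the 9900 genes within 0.5 of 0. It was -0.17 for the 1173 genes from 0.5 to 1, -0.34 for the 616 from 1 to 2, -0.52 for the 209 from 2 to 3, and -0.60 for the 115 above 3. In S061 the medians of the last 3 groups were -0.28, -0.33 and -0.55, and in S135 they were -0.50, -0.82 and -0.85. These are descriptions across genes, which are not independent replicates.

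**Figure D4:**
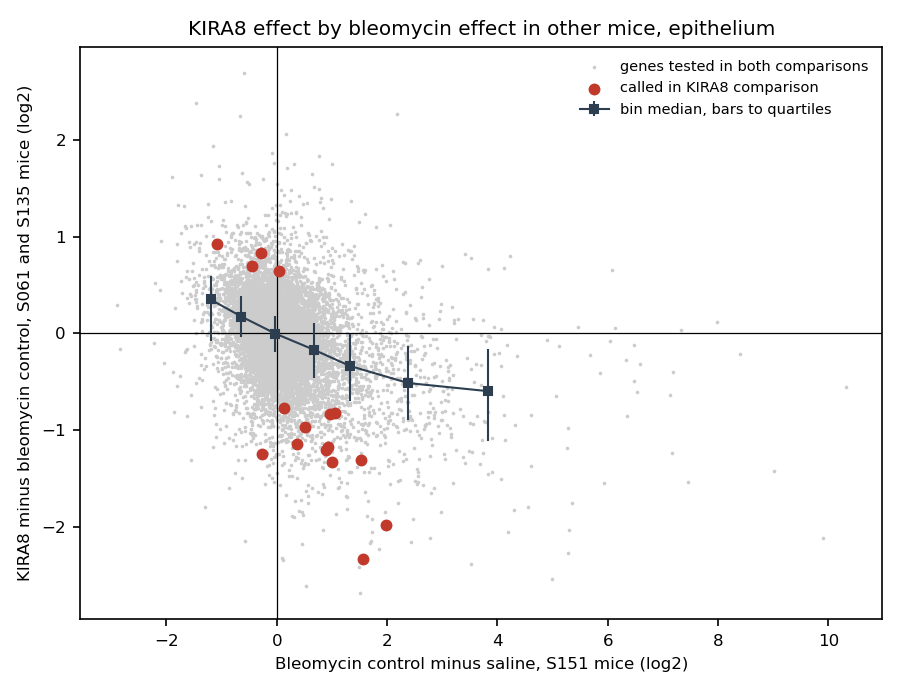
KIRA8 minus bleomycin control in epithelium of S061 and S135 (vertical, log2) against bleomycin control minus saline in epithelium of S151 (horizontal, log2), 1 grey point per gene for 13346 genes. Red points are the 16 called genes, and squares are medians of genes grouped by bleomycin effect with bars to the quartiles, which fall from 0.35 at the left to -0.60 at the right.

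Among the bleomycin-raised genes, those enriched in epithelium and those depleted from it both had negative medians. The 18 raised genes that were at least 2-fold enriched in saline epithelium had a median of -0.93 (log2). All 18 were negative, against 51.1% of all genes, and 10 were lower at an unadjusted p under 0.05 (55.6%, against 7.19%). In S061 and S135 separately their medians were -0.92 and -0.73. The 70 tested raised genes that were at least 2-fold depleted had a median of -0.35, with -0.30 in S061 and -0.81 in S135. The remaining 159 had a median of -0.47. Of the 56 lowered genes, 20 were enriched in epithelium and had a median of 0.37. Of those 20, 11 were higher at an unadjusted p under 0.05 (55%, against 6.78% of all genes).

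Epithelium-enriched genes as a whole had a median close to that of all genes and a larger share at low p. The 1982 tested had a median KIRA8 effect of 0.01 (log2), with 2 called higher and 3 lower, against 0.028% and 0.0841% of all genes. At an unadjusted p under 0.05, 253 were higher (12.8%, against 6.78% of all genes) and 174 lower (8.78%, against 7.19%). The 2758 tested epithelium-depleted genes had a median of 0.01, with 0 called higher and 5 lower, and 5.84% were higher and 5.69% lower at an unadjusted p under 0.05. The 2 batches differed in sign for both groups. Enriched genes had medians of -0.06 in S061 and 0.13 in S135, and depleted genes 0.09 and -0.11. Of the 12 genes called lower, 3 were enriched and 5 depleted, and of the 4 called higher, 2 were enriched and 0 depleted, where 13.9% of all genes tested were enriched and 19.3% depleted.

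Mouse by mouse, the mean log2 level of the bleomycin-raised genes was set against the mean of the control mice of the same batch. In S061 the control mice lay at 0.02, -0.02 and -0.01, and KIRA8 mice 20, 32 and 41 at -0.34, -0.74 and -0.35. In S135 control mice 148 and 149 lay at 0.43 and -0.43, KIRA8 mice 154 and 155 at -0.52 and -0.81, and saline mice at -1.86, -1.86 and -2.29. All 5 KIRA8 mice lay below the controls of their batch, though in S135 mouse 154 was close to control mouse 149. Both KIRA8 mice of S135 lay above the saline mice of that batch, and S061 held no saline mouse.

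For the bleomycin-lowered genes the KIRA8 mice lay at 0.04, 0.52 and 0.40 in S061, above controls at 0.01, -0.02 and 0.01. In S135 they lay at 0.55 and 0.37, with controls at -0.33 and 0.33 and saline mice at 0.88, 0.77 and 0.78. Again the arms did not overlap within a batch, but KIRA8 mouse 20 and control mouse 149 each lay close to the other arm. Of the 2 controls of S135, mouse 149 lay nearer to the KIRA8 mice in both groups of genes.

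**Figure D5:**
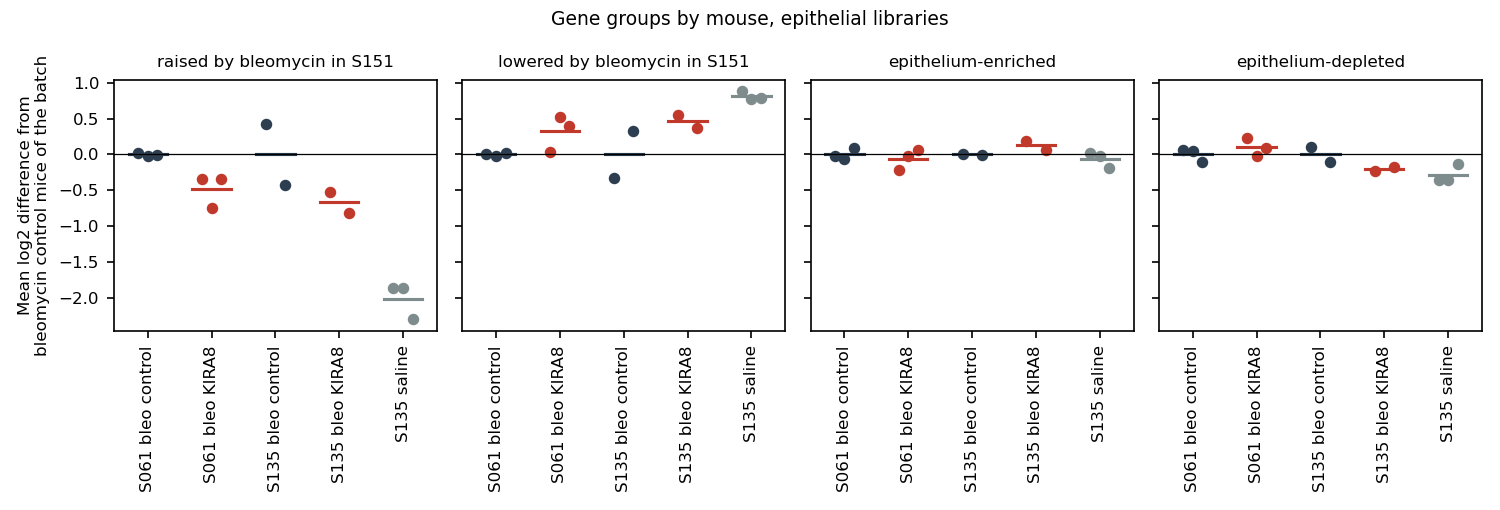
Mean log2 difference of each epithelial library from the bleomycin control mice of its batch, 1 point per mouse and a bar at the group mean, for genes raised or lowered by bleomycin in S151 and for genes enriched in or depleted from saline epithelium. For the raised genes the KIRA8 mice (red) lie at -0.34 to -0.81, each below the controls (dark) of its own batch, and the saline mice of S135 (grey) lie at -1.86 to -2.29. Control mouse 149, at -0.43, lies below 2 KIRA8 mice of S061. For the enriched and depleted groups the KIRA8 means lie on opposite sides of 0 in the 2 batches.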

How the data were processed

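The authors deposited 1 table of raw read counts per Ensembl gene and library, with no normalization. Reads were processed with STAR 2.5.2b and genome build GRCm38, per the submitters' processing notes. The labels name neither a counting program nor an annotation release (not given in the sources used here). The extraction protocol in the labels names anti-HA immunoprecipitation and a 3' end library kit for both compartments.

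Columns were matched to samples by mouse number and compartment, and 0 were left unused. Genes limited to S061 (501) had a median over the 12 S061 libraries of at least 1 CPM and at least 20 times the higher median of the other batches plus 0.1 CPM. Counts of the remaining genes were filtered with filterByExpr, scaled by TMM and tested with edgeR 4.0.16 (R 4.3.3, quasi-likelihood, robust, batch as a term), and p-values were adjusted by Benjamini-Hochberg over all genes tested. Genes at an adjusted p under 0.05 were called. Each SE given is the size of the log2 change divided by the square root of the F statistic of its test. It is derived from the test and is not a fitted standard error of the coefficient. The genes to be given were the called ones with the largest change in each direction, at least 5 CPM in the higher arm and 1 direction in both batches. Because IDs could not be paired with symbols, the first 2 in each direction are given, and the symbols fixed by name, the fill to 12 genes and the marker and pathway lists were not used. Mouse means used log2 CPM with a prior count of 2. Enriched and depleted genes passed the same test between the compartments of saline S151 mice with at least a 2-fold difference.

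The members and lists were chosen with earlier results of these data known, and the groups by bleomycin response and enrichment were set after the IDs were found to have no symbols. The fit was tested on simulated data. Epithelial and whole lung libraries of 1 mouse are paired by the labels, and their deviations from the group means correlated at 0.172 to 0.289 over 14032 genes in all 10 pairs. In S135 each arm held 2 mice, whose deviations mirror each other. Mice 148 and 149 therefore share 1 value (0.211), as do 154 and 155 (0.172), so the 10 values are not independent. No 2 replicate libraries agreed within sampling noise (chi-square per degree of freedom at least 16.3 in 16 pairs). Alternatives were DESeq2 1.42.0, limma 3.58.1 voom, other scaling, filters and terms, each batch alone, and leaving out each mouse.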

Additional observations from a re-analysis of the deposited data

Results flagged for a closer look

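The KIRA8 effect differed between S061 and S135 for 16 genes by edgeR's test of the interaction, all with opposite directions in the 2 batches. ENSMUSG00000024529 differed between compartments, with an epithelial effect -1.57 (log2) relative to that in whole lung (edgeR adjusted p = 0.000298). The genes set aside as limited to S061 held a mean of 25.8% of the counts in the 3 KIRA8 epithelial libraries of that batch, above the control mean of 18.8%.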

How the results depend on the processing

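The 16 called genes kept their direction under all 15 other settings and all 10 omissions of a mouse, while the number of calls depended strongly on the setting. It was 48 with all 24 epithelial libraries, which add the saline mice of S135 and the saline, bleomycin control and 3G9 mice of S151. It was 533 with DESeq2, 175 with voom and 788 with voom and sample quality weights. It was 27 with RLE size factors, 210 without a filter and 40 at a mean of at least 5 CPM. It was 4 with the S061-limited genes kept, and 3 with the narrower rule for them, with their share as a term or with sex as a term. It was 156 in S061 alone and 0 without a batch term, where 490 genes had an unadjusted p under 0.05. The 3 strongest genes were called in 13 of 15 settings, the exceptions being S135 alone and no batch term, and each of the other 13 genes in 7 to 10 of 15. With all 24 epithelial libraries, 8 of the 16 were among the 48 called. Without 1 mouse the count was 3 to 177. The split of 4 higher and 12 lower became 14 and 13 with RLE size factors, 109 and 101 without a filter, and 311 and 222 with DESeq2. The median effect of the bleomycin-raised genes was -0.65 to -0.42 over the 15 settings and -0.56 to -0.37 without 1 mouse. That of the lowered genes was 0.34 to 0.43 and 0.28 to 0.47. Of the 15 settings, the fit with all 24 epithelial libraries includes the S151 mice that defined both groups. Its medians of -0.53 and 0.43 are therefore not independent of that definition. Redefining both groups by 8 other settings of the bleomycin comparison gave -0.67 to -0.41 (84 to 575 genes tested) and 0.25 to 0.56. The lowered group then held 3 to 335 tested genes, 6 of them behind the value of 0.56, so its range says little about stability. The batch interaction count was 299 with DESeq2 and 0 to 41 without 1 mouse. The compartment count of 1 became 0 with no replicate block (1792 genes at an unadjusted p under 0.05), 39 in S061 alone, 7 in S135 alone and 1 to 65 without 1 mouse, reaching 65 without KIRA8 mouse 32. In whole lung the count of 17 became 0 with the S061-limited genes kept, 899 with DESeq2, 111 in S061 alone, 0 in S135 alone and 0 to 501 without 1 mouse, reaching 501 without control mouse 149 (2665 and 1351 genes at an unadjusted p under 0.05 where it was 0 for the first and the last of these settings). The S151 bleomycin count of 315 became 912 with DESeq2 and 91 to 862 without 1 mouse. Settings for single batches outside the epithelial comparison, and those leaving out S151 mice, were chosen after the data were seen, as were the DESeq2 fit and the fit with S061-limited genes kept for the batch interaction, and the latter for the compartment difference. The causes of these changes were not tested.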
